A study of Mus musculus with 6 samples.

Results

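The endoplasmic reticulum (ER) chaperones and disulfide isomerases described here are 10 genes of the ER folding machinery, found by symbol in the count tables of 6 plates of mouse islet cells, 10 of 52542 gene rows. They are the chaperones Hspa5, Hsp90b1 and Hyou1, the lectin chaperones Calr and Canx, the disulfide isomerases Pdia3, Pdia4 and Pdia6, the co-chaperone Dnajc3 and the prolyl isomerase Fkbp11. All 10 were present in every table, and none was chosen by a threshold on its counts. Each was described by its share of UMIs (unique molecular identifiers, 1 per captured mRNA molecule) in 5 classes of wells, between operations and by the insulin load of the well.

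Proteins bound for secretion are folded in the ER lumen. Chaperones of the HSP70 and HSP90 families hold unfolded chains, calreticulin and calnexin bind glycoproteins through their sugars, and protein disulfide isomerases make and reshuffle disulfide bonds. Beta cells depend on this machinery because proinsulin, their main product, folds with disulfide bonds, and an excess of unfolded protein switches on the unfolded protein response, which raises transcription of many of these genes.

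The wells came from male Sox9-CreER; tdTomato mice, in which the Sox9 promoter drives a tamoxifen-dependent Cre and recombined cells and their descendants carry the red reporter. Every mouse had received 8 mg of tamoxifen over 2 weeks from the age of 10 weeks and was operated on at 12 weeks. The ppx mice underwent partial pancreatectomy and the sham mice a sham operation, and islets were isolated 4 weeks later, dissociated and sorted 1 cell to a well for MARS-seq, a 3′-end UMI method. Plates ppx 1 and sham 1 held tomato-positive cells, plates ppx 2, ppx 3 and sham 3 held tomato-negative cells, and plate sham 2 held positive cells in its first 4 rows and negative cells below. The 6 plates, 3 per operation, are the replicates here. The labels do not tie plates to the 6 pancreata, so p-values of ppx minus sham measure the spread between plates, which may be partly technical. Where classes or tertiles of the same plates were compared, plate was a block. Those p-values measure the spread that is left between the sums once plate differences are taken out.

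The plates held 2304 wells (the study states 2300 cells) and between 1250861 and 1508513 UMIs each, and 2115 wells passed the filters of at least 500 UMIs and at most 20% mitochondrial UMIs. Wells were classed by hormone share, with no removal of doublets beyond the classes themselves: insulin-only (Ins1 and Ins2 at least 3.3% of UMIs), glucagon-only (Gcg at least 2.3%), somatostatin-only (Sst at least 0.73%), Ppy-high (Ppy at least 2%) and joined (insulin and somatostatin both high, glucagon low). Wells of each single-hormone class, Ppy-high included, were below the thresholds of all the other hormones, while joined wells were taken whatever their Ppy. The 5 classes took 1573 wells, of which 992 were insulin-only, 125 glucagon-only, 219 somatostatin-only, 62 Ppy-high and 175 joined. The 542 kept wells in none of the 5 classes had median shares of 5.24% for Sst and 3.33% for Ppy. Insulin-only wells numbered 19, 290 and 291 on plates ppx 1, 2 and 3, and 23, 177 and 192 on plates sham 1, 2 and 3, so the tomato-positive plates carry few of them. In this class all 11 beta cell markers other than insulin had counts on every plate, and their summed level was 6.34 to 8.47% of UMIs on ppx plates and 6.57 to 7.56% on sham plates. Levels below are percentages of all UMIs of a class on a plate other than spiked-in control RNA, and a sum needed at least 5 wells. Because hormone mRNA fills a large part of these totals, a share of UMIs falls when the hormone share rises.

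The promoters of most of these genes matched the same pattern of fixed letters with free bases between them. The ER stress response element has the letters CCAAT and CCACG with 9 bases of any kind between them, and is known to be read by the factors NF-Y and ATF6. It was searched on both strands of the RefSeq promoters of GRCm38.p6, each a window of 300 bases with 250 before the gene's start and 50 after it. Of the 10 genes, 9 had a promoter in the table, all but Hyou1, and 6 of these 9 held the element, against 39 of 32851 promoters (0.119%). Here and below a gene counted if any of its promoters matched, while the background counts single promoters, theirs included, so the units differ. The same letters without the last G, a form chosen after these sequences were seen and which includes every full match, stood in 8 of the 9 and in 120 promoters (0.365%). The second such element, ATTGG and CCACG with 1 base between them, stood in 0 of the 9 and in 12 promoters (0.0365%). The 10 genes were chosen as ER folding genes, many of them raised by the unfolded protein response. Frequent matches to an ER stress element are therefore not independent of that choice. The matches are printed 5′ to 3′ on the strand of the gene, with the letters of the element in capitals, in reverse complement where CGTGG or GTGG comes first.
Hspa5 (chr2:34772020-34772049, plus strand): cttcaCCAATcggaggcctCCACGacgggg
Hsp90b1, distal (chr10:86705632-86705661, minus strand): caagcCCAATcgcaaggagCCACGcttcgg
Hsp90b1, proximal (chr10:86705527-86705556, minus strand): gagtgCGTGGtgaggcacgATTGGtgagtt
Pdia6 (chr12:17266486-17266515, plus strand): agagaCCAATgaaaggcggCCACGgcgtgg
Calr (chr8:84847069-84847098, minus strand): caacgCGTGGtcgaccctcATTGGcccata
Canx (chr11:50325794-50325823, minus strand): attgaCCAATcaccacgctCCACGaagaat
Dnajc3 (chr14:118937822-118937851, plus strand): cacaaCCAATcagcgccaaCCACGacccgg
Pdia3, without the last G (chr2:121413868-121413896, plus strand): cgcagCCAATcggcggctgCCACactgcg
Pdia4, without the last G (chr6:47813596-47813624, minus strand): accgaGTGGcagcccgtgATTGGtggtcg
The Fkbp11 promoter held no match. A match is a description of letters in the window, not of a bound site.

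At baseline, on the sham plates, insulin-only wells devoted more of their mRNA to these genes than the other classes. Glucagon-only wells were lowest, with the 10 genes together at 0.339, 0.319 and 0.358% of UMIs on plates sham 1, 2 and 3. Ppy-high wells had 0.360 and 0.394% on plates sham 2 and 3, just above the glucagon-only values, and somatostatin-only wells had 0.423, 0.384 and 0.398%, which overlaps the Ppy-high range. Joined wells had 0.547, 0.573 and 0.410%, overlapping somatostatin-only wells through plate sham 3, and insulin-only wells had 0.609, 0.636 and 0.589%, above every joined value. With hormone UMIs taken out of the total, glucagon-only wells stood at 0.470 to 0.498% and somatostatin-only wells at 0.488 to 0.541%, against 0.861 to 0.905% in insulin-only wells. The median Ppy share of Ppy-high wells was 34.6 and 34.3% on plates sham 2 and 3. The median Sst share of somatostatin-only wells was 7.93, 14.6 and 20.4% on plates sham 1, 2 and 3. The order of these classes in shares of all UMIs may therefore not hold without hormones.

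**Figure D1:**
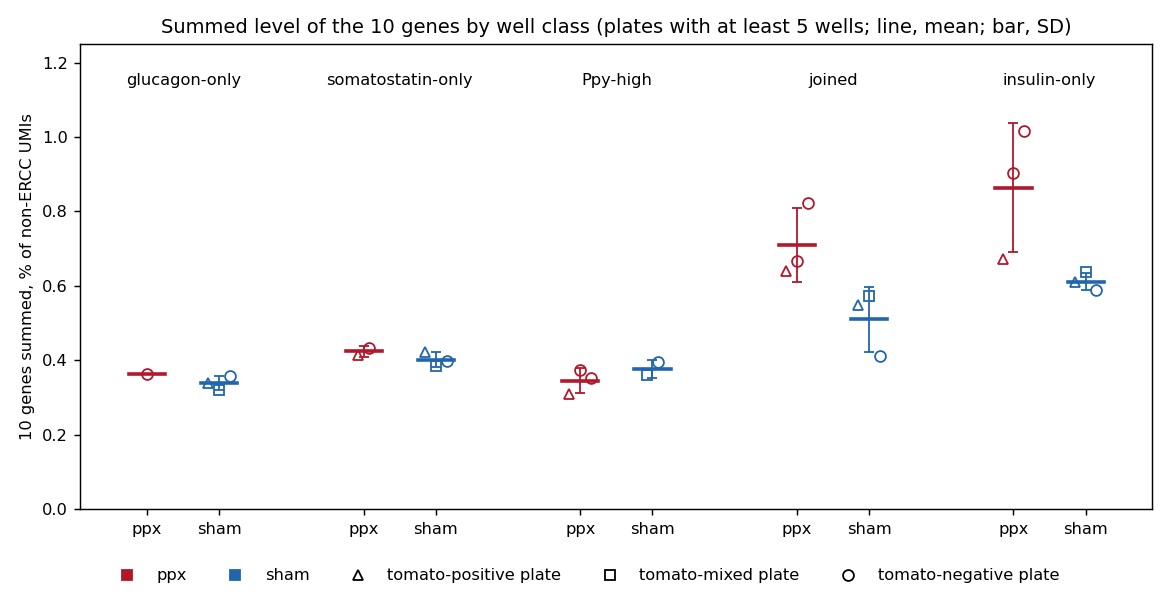
Summed level of the 10 genes (y axis, percentage of UMIs other than spiked-in control RNA) in the 5 classes of wells, with ppx left of sham; each point is a plate with at least 5 wells of the class, its shape gives tomato status, the line is the mean and the bar the SD. Insulin-only and joined wells have higher means than the other 3 classes, with the joined wells of plate sham 3 level with somatostatin-only wells, and in each of insulin-only and joined wells every ppx plate lies above every sham plate, in insulin-only wells of plate ppx 1 through 1 well.

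Glucagon-only against insulin-only wells gave the broadest difference. All 9 genes tested had lower values and 8 passed the test (adjusted p under 0.05), where 12.3% of the 3706 genes tested were lower, and the median log2 difference was -0.91 for these genes and -0.03 for all genes. Pdia4 had too few counts to be tested. Adjusted p-values here and below are from edgeR's quasi-likelihood test on UMI sums per plate with Benjamini-Hochberg adjustment over all genes tested, with plate as a block between classes of the same plates. Hspa5 (BiP), the HSP70 chaperone that also restrains the stress sensors, was at 0.118, 0.101 and 0.0946% of UMIs in glucagon-only wells and at 0.178, 0.166 and 0.160% in insulin-only wells of plates sham 1, 2 and 3, and the groups did not overlap. Its log2 fold change was -0.66 ± 0.15 (SE, adjusted p = 9.35e-05). Fkbp11, which the secretory pathway uses to isomerise proline bonds, was at 0.00513, 0.00283 and 0.00322% in glucagon-only wells and at 0.0127, 0.0166 and 0.0137% in insulin-only wells. This was the largest difference of the 9, at -2.07 ± 0.40 (adjusted p = 2.13e-06), on 13 UMIs in glucagon-only wells. Dnajc3 (p58IPK), a co-chaperone of Hspa5, was lower by a log2 fold change of -1.37 ± 0.20 (adjusted p = 1.39e-10), and Hyou1, an HSP70-like chaperone that exchanges the nucleotide of Hspa5, by -1.36 ± 0.44 (adjusted p = 0.0106).

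Among the disulfide isomerases, Pdia6 differed by -1.22 ± 0.17 (adjusted p = 1.64e-11), while Pdia3, which works with calreticulin and calnexin on glycoproteins, differed by -0.36 ± 0.16 and missed the threshold (adjusted p = 0.0908). The lectin chaperones were lower too, Calr by -0.85 ± 0.15 (adjusted p = 2.70e-07) and Canx by -0.54 ± 0.16 (adjusted p = 0.00361), as was Hsp90b1 (GRP94), the HSP90 of the ER, by -0.91 ± 0.24 (adjusted p = 0.00143). Summed with Gm15344, an annotated transcript inside the gene described below, Hsp90b1 differed by -0.40 ± 0.15 (adjusted p = 0.0333), and Gm15344 alone by -0.29 ± 0.15 (adjusted p = 0.144). The count of 8 fell to 4 without plate sham 2. Immediate early and dissociation genes moved with this contrast, with 11 of 17 higher and 1 lower in glucagon-only wells. Of all 3706 genes tested 490 were higher and 454 lower. The part of the immediate early and dissociation genes in the result was not tested.

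In somatostatin-only wells 7 of 9 genes were lower than in insulin-only wells, where 9.58% of all genes were lower, with a median of -1.04 against -0.05 for all genes. Hspa5 was at 0.110, 0.124 and 0.0753% of UMIs in somatostatin-only wells of plates sham 1, 2 and 3, again below every insulin-only value, with a log2 fold change of -1.04 ± 0.17 (adjusted p = 5.45e-08). Pdia6 at -1.63 ± 0.21 and Fkbp11 at -2.21 ± 0.51 were further apart (adjusted p = 7.75e-13 and 0.00022), Fkbp11 on 8 UMIs in somatostatin-only wells. Hsp90b1 (-0.21 ± 0.27, adjusted p = 0.700) and Pdia3 (-0.48 ± 0.20, adjusted p = 0.0748) did not pass the test. The count was 4 without plate sham 1 and 4 without plate sham 2. Somatostatin-only wells were shallower, with a median of 1533 UMIs against 4248 in insulin-only wells over all plates, and had a median mitochondrial share of 12.2% against 9.18%. Of the immediate early and dissociation genes, 8 of 17 were higher and 1 lower in somatostatin-only wells, where 253 of all 3706 genes were higher and 355 lower. The part of depth, mitochondrial share and the immediate early and dissociation genes in the result was not tested.

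Ppy-high wells, with 15 wells on 2 sham plates, gave 1 lower gene of 9, Calr (-1.38 ± 0.28, adjusted p = 7.34e-05), where 3.1% of all genes were lower. The other 8 had differences of -0.39 to -2.15 that did not pass, and the median was -0.63 against -0.29 for all genes. Without plate sham 2 the count was 0 and without plate sham 3 it was 2, over all 6 plates it was 8, and with wells counted as Ppy-high whatever their Sst and Gcg it was 7. Joined wells gave 0 of 9 in either direction, where 2.46% of all genes were called, and a median of -0.31 against 0.00 for all genes. Hspa5 in joined wells was at 0.144, 0.149 and 0.126% of UMIs on plates sham 1, 2 and 3, between the insulin-only and the somatostatin-only means, and its difference from insulin-only wells was -0.34 ± 0.15 (adjusted p = 0.291).

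After partial pancreatectomy, insulin-only wells held more mRNA of 6 of the 10 genes. Hspa5, Hsp90b1, Hyou1, Pdia4, Dnajc3 and Fkbp11 rose, Pdia3, Pdia6, Calr and Canx did not pass the test, and none fell. Of the 8124 genes tested 0.283% rose. The median log2 fold change was 0.63 over the 10 genes and -0.01 over all genes. The summed level was 0.673, 0.904 and 1.02% of UMIs on plates ppx 1, 2 and 3 and 0.609, 0.636 and 0.589% on plates sham 1, 2 and 3, with no overlap, and averaged 0.864 ± 0.174% on ppx plates and 0.611 ± 0.0235% on sham plates (SD, n = 3 each). For plate ppx 1 this rests on 1 well, which held 115 UMIs of the 10 genes among its 6038. Without the well highest in the 10 genes on each plate, the summed level was 0.60002, 0.898 and 1.01% on plates ppx 1, 2 and 3 and 0.583, 0.633 and 0.586% on plates sham 1, 2 and 3, so that plate ppx 1 was below plate sham 2.

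**Figure D2:**
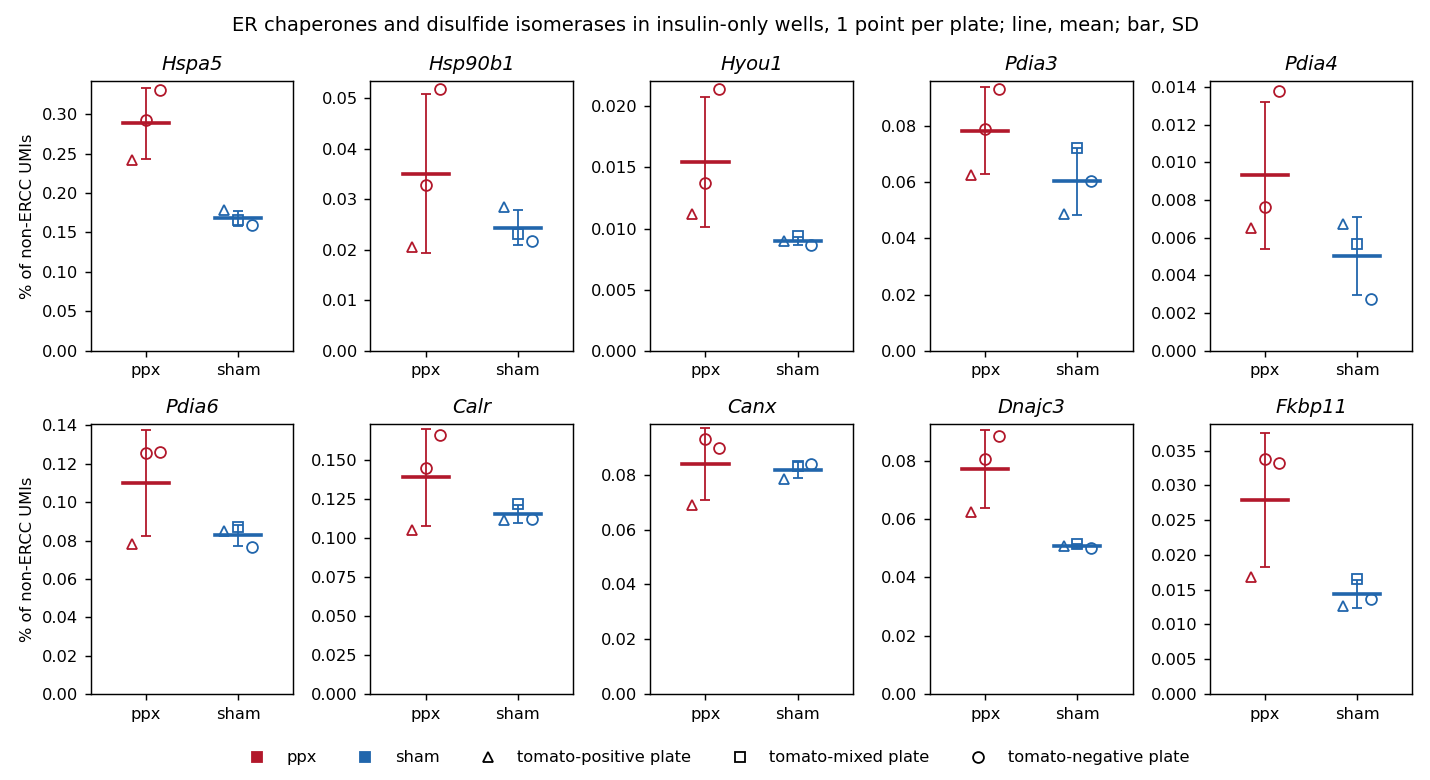
Level of each gene in insulin-only wells (y axis, percentage of UMIs other than spiked-in control RNA, from 0) on ppx and sham plates; each point is a plate, its shape gives tomato status, the line is the mean and the bar the SD (n = 3). Plates ppx 2 and ppx 3 lie above every sham plate for each gene, by little for Canx, while plate ppx 1 lies among or below the sham plates for 6 of the 10 genes.

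Hspa5 was the most abundant of the 10 by UMIs, with 10965 in this class. It was at 0.241, 0.293 and 0.331% on plates ppx 1, 2 and 3 and at 0.178, 0.166 and 0.160% on plates sham 1, 2 and 3. All 3 ppx plates were above all 3 sham plates, and the log2 fold change was 0.75 ± 0.13 (SE, adjusted p = 0.00164). Its partners moved the same way. Dnajc3 was at 0.0624, 0.0806 and 0.0886% on ppx plates 1, 2 and 3 and at 0.0508, 0.0514 and 0.04997% on sham plates 1, 2 and 3, without overlap, and rose by 0.59 ± 0.14 (adjusted p = 0.0374). Hyou1 was at 0.0112, 0.0138 and 0.0214% on ppx plates and at 0.00896, 0.00935 and 0.00863% on sham plates, also without overlap, and rose by 0.84 ± 0.18 (adjusted p = 0.0133).

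Fkbp11 had the smallest adjusted p of the 10. It was at 0.0168, 0.0337 and 0.0332% on plates ppx 1, 2 and 3 and at 0.0127, 0.0166 and 0.0137% on plates sham 1, 2 and 3. The lowest ppx plate only just cleared the highest sham plate, and the log2 fold change was 1.01 ± 0.15 (adjusted p = 7.22e-05). Pdia4, the least counted gene with 350 UMIs, was at 0.00652, 0.00763 and 0.0138% on ppx plates and at 0.00672, 0.00568 and 0.00274% on sham plates. Here the groups overlapped, and the log2 fold change was 1.16 ± 0.25 (adjusted p = 0.0148). Every ppx plate was above every sham plate for 4 of the 10 genes, Hspa5, Hyou1, Dnajc3 and Fkbp11, where this held for 7.52% of all genes tested. Without the highest well of each plate it held for Hspa5, Hyou1 and Dnajc3 but not for Fkbp11, which was then at 0.0148% on plate ppx 1 and at 0.0166% on plate sham 2.

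Hsp90b1 was at 0.0205, 0.0329 and 0.0518% on plates ppx 1, 2 and 3 and at 0.0284, 0.0231 and 0.0217% on plates sham 1, 2 and 3, so that plate ppx 1 was below every sham plate. Its log2 fold change was 0.67 ± 0.16 (adjusted p = 0.0486). This value is uncertain, because the annotated transcript Gm15344 lies inside the gene on the same strand (chr10:86692119-86693095 of GRCm38) and took 6213 UMIs in insulin-only wells against 1488 for Hsp90b1. Gm15344 itself differed by 0.29 ± 0.14 (adjusted p = 0.543), and with both summed the log2 fold change was 0.32 ± 0.14 (adjusted p = 0.459).

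The 4 genes that did not pass were the lectin chaperones and the isomerases Pdia3 and Pdia6. Pdia6 was at 0.0782, 0.125 and 0.126% on plates ppx 1, 2 and 3 and at 0.0851, 0.0869 and 0.0766% on plates sham 1, 2 and 3 (log2 fold change 0.40 ± 0.14, adjusted p = 0.320). Pdia3 was at 0.0624, 0.0791 and 0.0933% on ppx plates and at 0.0485, 0.0723 and 0.0603% on sham plates (0.32 ± 0.15, adjusted p = 0.485). In both, plate ppx 1 lay within the sham range. Calr, the soluble lectin chaperone, was at 0.105, 0.145 and 0.166% on ppx plates and at 0.111, 0.122 and 0.112% on sham plates (0.24 ± 0.14, adjusted p = 0.652). Canx, its membrane-bound relative, was at 0.0689, 0.0931 and 0.0898% on ppx plates and at 0.0784, 0.0832 and 0.0838% on sham plates (0.01 ± 0.14, adjusted p = 0.996). The promoter element printed above stood both in genes that rose, such as Hspa5 and Dnajc3, and in genes that did not pass, such as Calr and Canx, and Fkbp11 rose without a match.

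The differences were larger between tomato-negative than between tomato-positive plates. Among tomato-negative plates, the mean of ppx 2 and ppx 3 over sham 3 gave a ratio of 1.95 for Hspa5, 2.45 for Fkbp11 and 1.63 for the sum. Between the tomato-positive plates, ppx 1 over sham 1 gave 1.35 for Hspa5, 1.32 for Fkbp11 and 1.11 for the sum, and under 1 for Hsp90b1 (0.722), Pdia4 (0.970), Pdia6 (0.919), Calr (0.946) and Canx (0.879). The pair rests on 19 and 23 wells and was not tested alone. Fewer members passed without 1 plate: 3 without sham 1, 2 without sham 2, 1 without sham 3, 4 without ppx 2 and 1 without ppx 3, while 7 passed without ppx 1; Fkbp11 passed in each.

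Insulin share and cell mix moved with the operation on some plates. The median insulin share of insulin-only wells was 31.6, 15.8 and 14.9% on plates ppx 1, 2 and 3 and 26.1, 22.8 and 25.4% on plates sham 1, 2 and 3. As a share of UMIs other than hormones the 10 genes stood at 1.06, 1.18 and 1.30% on ppx plates and at 0.904, 0.905 and 0.861% on sham plates, still without overlap, and at 0.948, 1.17 and 1.30% on ppx plates and at 0.864, 0.902 and 0.856% on sham plates without the highest well of each. Summed acinar markers were at 0.000168 to 0.00838% on ppx plates and at 0.000118 to 0.002% on sham plates, with 3 to 14 of 15 genes at 0 on ppx plates and 7 to 14 on sham plates, and macrophage and lymphocyte markers at 0.00361 to 0.00587% on ppx plates and at 0.00299 to 0.0197% on sham plates. Their part in the result was not tested. Genes of tissue dissociation were at 0.563 to 0.699% on ppx plates and at 0.538 to 0.736% on sham plates, and 0 of 19 passed the test.

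Some other genes of the pathway passed the test too, where 0.283% of all 8124 genes tested rose. The median log2 fold change of 28 other lumenal chaperones and oxidoreductases tested was 0.21, against -0.01 over all genes. Of these 28, 3 rose and none fell. These were Sdf2l1 (1.501 ± 0.20, adjusted p = 1.05e-05), a partner of the Hspa5 co-chaperones, Creld2 (1.06 ± 0.15, adjusted p = 4.13e-05), a stress-inducible protein with isomerase activity, and Ppib (0.61 ± 0.15, adjusted p = 0.0443), the cyclophilin of the ER. Creld2 was at 0.0317, 0.0261 and 0.0296% on plates ppx 1, 2 and 3 and at 0.0157, 0.0123 and 0.0128% on plates sham 1, 2 and 3, so that for this gene the tomato-positive ppx plate was as high as the others. Of 18 genes of ER-associated degradation and export, 1 rose, Derl3 (2.28 ± 0.32, adjusted p = 4.01e-05), a membrane component of the degradation machinery, with 8, 61 and 66 UMIs on ppx plates against 1, 9 and 10 on sham plates. Of 14 stress sensors and transcription factors 0 passed, with a median of 0.06, and Chac1, a target of the ATF4 branch, had -0.52 ± 0.17 (adjusted p = 0.244). Cytosolic chaperones, which serve proteins outside the ER, had 0 of 12 called and a median of 0.06.

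**Figure D3:**
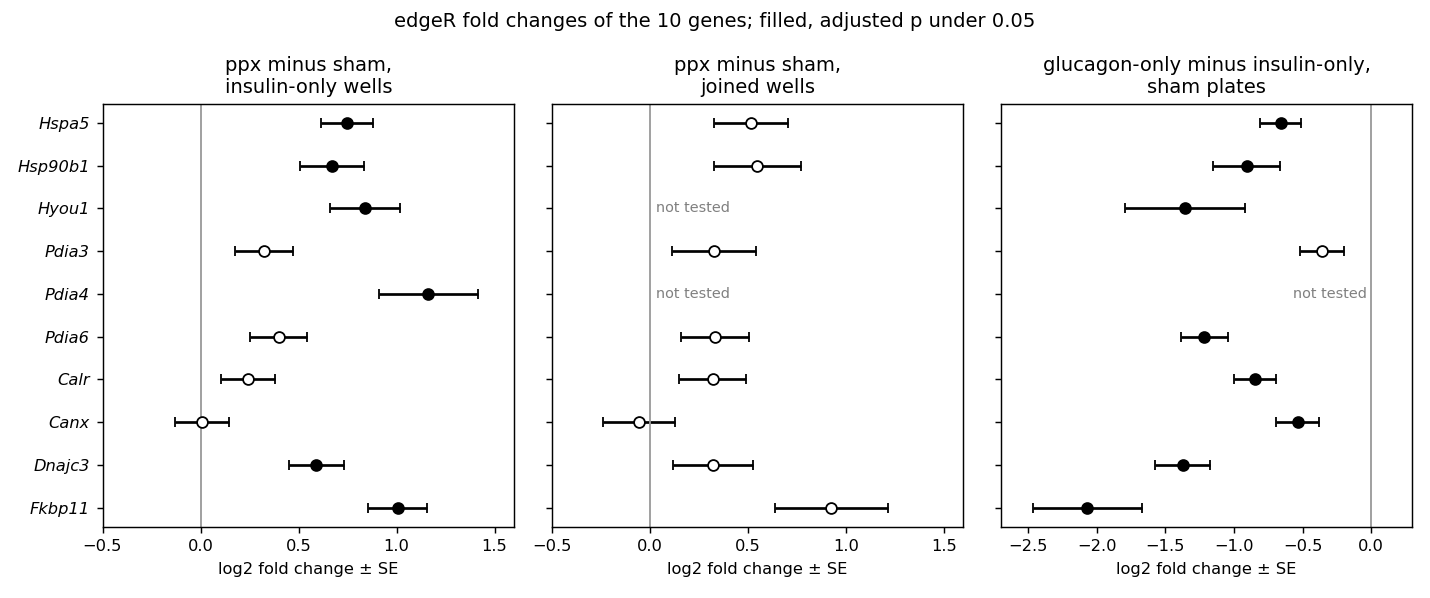
log2 fold change of each gene with its SE (x axis) for ppx minus sham in insulin-only wells (left), ppx minus sham in joined wells (middle) and glucagon-only minus insulin-only wells on sham plates (right); filled points have an edgeR adjusted p under 0.05. The first panel has 6 filled points above 0, the right panel 8 below 0.

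The other classes gave no called gene among the 10 between operations. Summed over plates, glucagon-only and somatostatin-only wells were fewer on ppx than on sham plates. Ppy-high wells were more on ppx plates, and joined wells were about as many. In joined wells the summed level was 0.639, 0.667 and 0.823% on plates ppx 1, 2 and 3 and 0.547, 0.573 and 0.410% on plates sham 1, 2 and 3, and averaged 0.710 ± 0.0991% and 0.510 ± 0.0875% (SD, n = 3 each), a ratio of 1.39 of ppx over sham plates. Of 8 genes tested 7 had positive log2 fold changes, with a median of 0.33 against -0.01 for all genes, and 0 passed, where 0.0908% of 1101 genes were called and 66 had an unadjusted p under 0.05. Hspa5 was at 0.204, 0.158 and 0.251% on ppx plates and at 0.144, 0.149 and 0.126% on sham plates (0.52 ± 0.19), and Fkbp11 at 0.0190, 0.0217 and 0.0247% on ppx plates and at 0.01005, 0.0145 and 0.00513% on sham plates (0.93 ± 0.29, adjusted p = 0.744). For 6 of the 8 tested every ppx plate was above every sham plate, where this held for 5.9% of genes. Plates ppx 2, ppx 3 and sham 3 gave 6, 5 and 6 joined wells, and acinar markers were at 0.0109 to 0.0248% on ppx plates and at 0.00256 to 0.00489% on sham plates, whose part in the result was not tested.

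Glucagon-only, somatostatin-only and Ppy-high wells showed levels within a narrow band on both sides. In glucagon-only wells the sum was 0.362% on plate ppx 2, the only ppx plate with enough wells (12), and 0.339, 0.319 and 0.358% on the sham plates, and 0 of 7 genes tested passed, where 0.332% of genes were called and 140 of 2106 had an unadjusted p under 0.05. With 1 ppx plate the spread behind that test comes from the sham plates alone, and the ppx plate is assumed to vary like them. In somatostatin-only wells it was 0.413 and 0.434% on plates ppx 1 and ppx 3 and 0.423, 0.384 and 0.398% on the sham plates, with 0 of 7 called, where 0% of 480 genes were called and 13 had an unadjusted p under 0.05. In Ppy-high wells it was 0.309, 0.374 and 0.352% on the ppx plates and 0.360 and 0.394% on plates sham 2 and 3, with 0 of 6 called, where 0% of 297 genes were called and 14 had an unadjusted p under 0.05. Hspa5 was at 0.122% in glucagon-only wells of plate ppx 2 and at 0.118, 0.101 and 0.0946% on the sham plates. In Ppy-high wells Hspa5 was at 0.106, 0.114 and 0.125% on the ppx plates and at 0.119 and 0.122% on the sham plates.

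Whether the operation acted differently in these classes was tested as an interaction with class, and 0 of 10 genes tested passed for glucagon-only, somatostatin-only and joined wells and 0 of 9 for Ppy-high wells, where 283 of 4137 genes for glucagon-only, 92 of 3389 for somatostatin-only, 71 of 1586 for Ppy-high and 151 of 5340 for joined wells had an unadjusted p under 0.05. The percentage of all genes called was 0.0483% for glucagon-only, 0.0295% for somatostatin-only, 0% for Ppy-high and 0.0562% for joined wells, each against insulin-only wells. Median interactions were -0.51 over the genes tested and -0.28 over all genes for glucagon-only wells, -0.21 and -0.04 for somatostatin-only wells, -0.42 and 0.11 for Ppy-high wells and 0.03 and -0.07 for joined wells. Hspa5 had -0.60 ± 0.30 in the glucagon-only interaction (adjusted p = 0.681). Without plate sham 1, 2 genes passed in the glucagon-only interaction, Hspa5 and Pdia3, both lower, with plate ppx 2 as the only ppx plate. Without plate ppx 1, 1 gene passed in the somatostatin-only interaction, Pdia3, on plate ppx 3 alone with 6 wells. The glucagon-only interaction has 1 ppx plate of glucagon-only wells, assumed to vary like the other sums. No difference of response between insulin-only wells and another class was shown with all plates, which does not show that the classes responded alike.

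Well by well, the whole distribution stood higher on 2 ppx plates. With each insulin-only well thinned to 2000 UMIs, which left out 0, 37 and 32 wells on plates ppx 1, 2 and 3 and 0, 8 and 8 on plates sham 1, 2 and 3, the median well had 10, 16 and 18 UMIs of the 10 genes on ppx plates and 11, 11 and 11 on sham plates. The Fano factor (variance over mean) was 6.45, 3.15 and 3.57 on ppx plates and 1.48, 1.99 and 1.96 on sham plates. The mean well was higher as well, with 12.5, 17.7 and 19.6 UMIs on ppx plates and 11.1, 12.2 and 11.2 on sham plates. Whether the spread widened beyond the rise of the mean was not tested. The values of plate ppx 1 come from 19 wells, 1 of which held 41 UMIs of the 10 genes, so its plate level and its median well differ in rank against the sham plates.

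**Figure D4:**
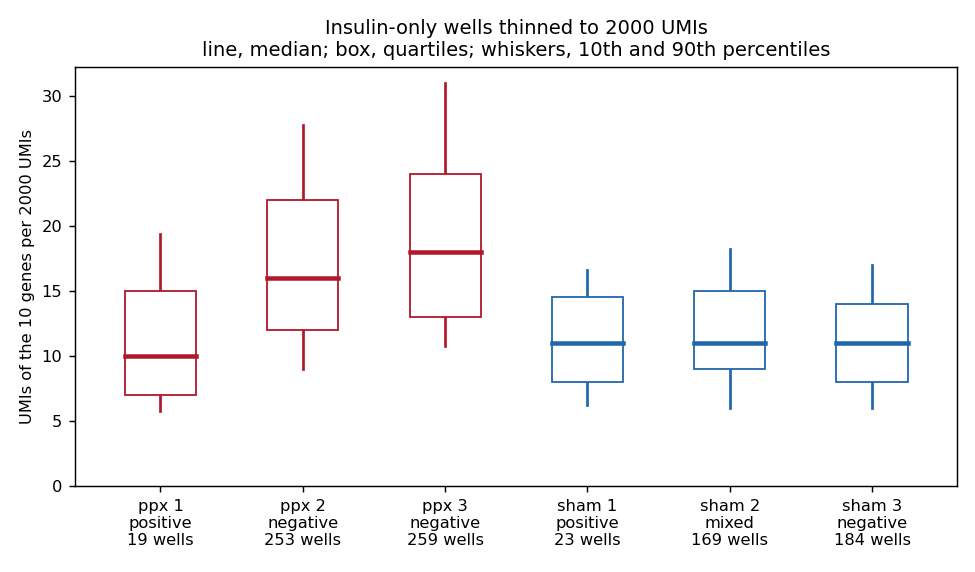
UMIs of the 10 genes per insulin-only well after thinning each well to 2000 UMIs (y axis), by plate, with tomato status and number of wells; line, median, box, quartiles, whiskers, 10th and 90th percentiles. Plates ppx 2 and ppx 3 have medians of 16 and 18, plate ppx 1 has 10 and each sham plate has 11.

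More insulin-only wells of ppx plates held a molecule of Fkbp11. With wells thinned to 1000 UMIs, Fkbp11 was seen in 25.5 ± 3.99% of insulin-only wells on ppx plates and in 9.82 ± 4.99% on sham plates (SD, n = 3 each), and in 1.52 ± 2.62% of glucagon-only wells on sham plates. Without thinning these shares of insulin-only wells were 56.6 ± 8.17% on ppx plates and 39.9 ± 3.86% on sham plates, at median depths of 4750, 3848 and 3992 UMIs on ppx plates 1, 2 and 3 and 5380, 4483 and 4815 UMIs on sham plates 1, 2 and 3. Of the other scarce genes, Pdia4 was seen in 9.80 ± 1.53% of thinned insulin-only wells on ppx plates and in 3.32 ± 3.72% on sham plates, and Hyou1 in 19.5 ± 7.05% on ppx plates and 10.6 ± 2.95% on sham plates, where the plates overlapped for Hyou1. Hspa5 was seen in 83.1 ± 8.13% of thinned insulin-only wells on ppx plates and in 73.1 ± 3.64% on sham plates, and in 63.3 ± 4.32% of glucagon-only wells on sham plates. Unthinned, the shares averaged 98.3% on ppx plates and 98.4% on sham plates.

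Within plates some of the 10 genes varied together from well to well. Across insulin-only wells of the 4 plates with at least 50 such wells, the mean Pearson r with Hspa5 was 0.35 for Dnajc3, 0.33 for Calr, 0.30 for Pdia3 and 0.29 for Pdia6, and the 9 pairs with Canx had a mean r of 0.03 to 0.09, lowest with Pdia4. Of 1892 other genes seen in at least 25% of these wells, the 10 most like the summed level were Manf (0.37), Rpn1 (0.34), Dnajb9 (0.33), P4hb (0.33), Sdf2l1 (0.32), Gm15344 (0.32), Creld2 (0.32), Ptprn (0.30), Ostc (0.28) and Herpud1 (0.28). Most are ER proteins, such as Manf, a secreted folding factor held in the ER, Rpn1 and Ostc, subunits of the glycosylation complex, and P4hb, the founding disulfide isomerase. These correlations share library and depth and are given as a description.

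The relation to insulin load was measured by ranking the insulin-only wells of each plate by insulin share and comparing the high with the low tertile, each holding 1 part in 3 of the wells. Over all 6 plates 0 of 10 genes differed, where 0.49% of 5923 genes did, 398 of them with an unadjusted p under 0.05, and the median log2 difference of high minus low was 0.13 against -0.01 for all genes. Fkbp11 (0.41 ± 0.14, adjusted p = 0.285) and Pdia6 (0.30 ± 0.11, adjusted p = 0.315) had the largest differences, Hspa5 had 0.08 ± 0.10, and the other genes lay between -0.13 for Hsp90b1 and 0.21 for Hyou1. Without plate ppx 1, Pdia6 passed (0.37 ± 0.09, adjusted p = 0.019). Among other genes of the pathway Manf (0.44 ± 0.11, adjusted p = 0.0155), Ero1lb (0.38 ± 0.10, adjusted p = 0.0326), the beta cell oxidase that recharges disulfide isomerases, and Chac1 (0.98 ± 0.19, adjusted p = 0.000236) were higher in the high tertile, as 2 of 28 lumenal genes and 1 of 13 stress genes tested.

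From the low to the high tertile, the summed level and Hspa5 went opposite ways on the plates of the 2 operations. In the low, middle and high tertiles, the summed level was 0.816, 0.612 and 0.464% on plate ppx 1, 0.919, 0.937 and 0.845% on plate ppx 2 and 1.06, 1.03 and 0.950% on plate ppx 3. On plate sham 1 it was 0.539, 0.550 and 0.7298%, on plate sham 2 it was 0.566, 0.667 and 0.664% and on plate sham 3 it was 0.519, 0.575 and 0.652%. The high tertile was below the low tertile on all 3 ppx plates and above it on all 3 sham plates. Hspa5 in the low, middle and high tertiles was at 0.320, 0.199 and 0.140% on plate ppx 1, at 0.306, 0.290 and 0.278% on plate ppx 2 and at 0.356, 0.326 and 0.307% on plate ppx 3, against 0.167, 0.168 and 0.199% on plate sham 1, 0.148, 0.168 and 0.178% on plate sham 2 and 0.139, 0.147 and 0.186% on plate sham 3. The tertiles of plate ppx 1 hold 6 or 7 wells each, and without its highest well its low tertile was at 0.657% for the sum and 0.249% for Hspa5.

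**Figure D5:**
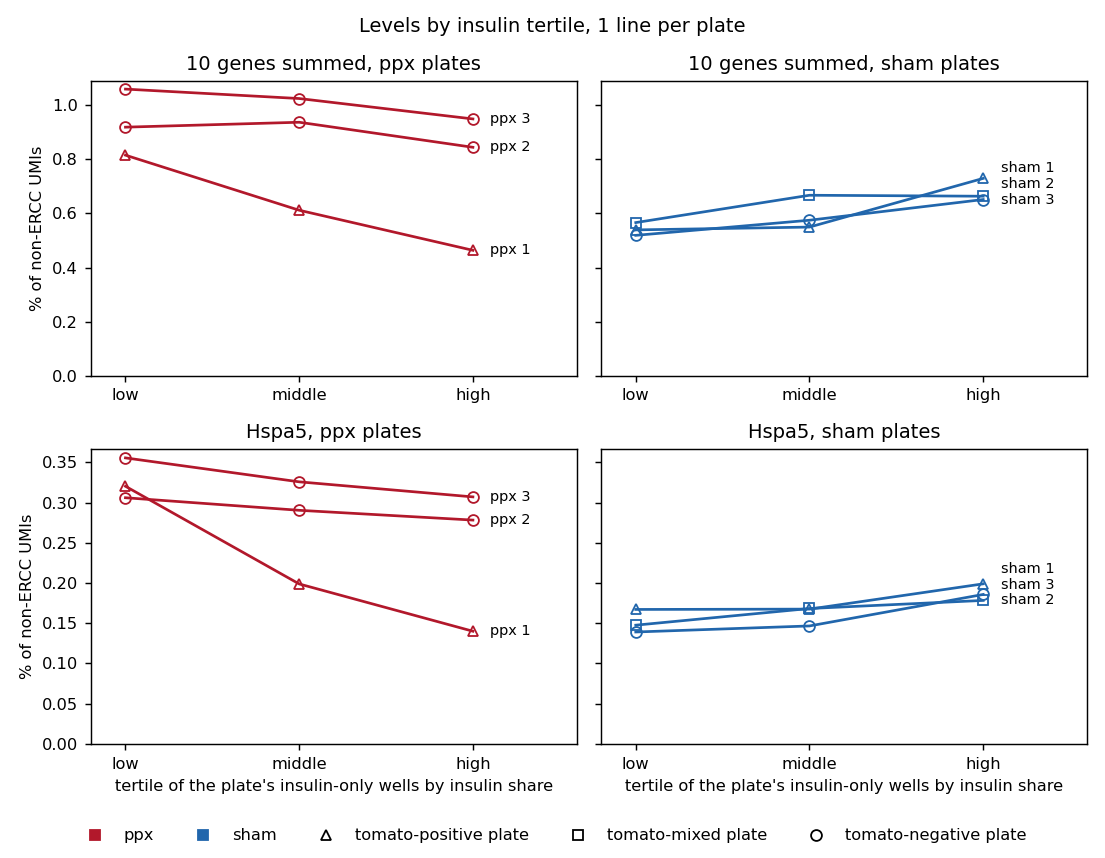
Level of the 10 genes together (top) and of Hspa5 (bottom) in the low, middle and high tertile of insulin-only wells by insulin share (x axis), as a percentage of UMIs other than spiked-in control RNA (y axis), 1 line per plate, ppx plates left and sham plates right. All 3 ppx lines end lower than they start and all 3 sham lines end higher.

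The ppx plates alone gave 0 genes of the 10 that differed between tertiles, with a median of -0.10, where 0.0357% of genes were called. The sham plates alone gave 3 of 10 higher in the high tertile, where 0.508% of 4526 genes were higher, with a median of 0.47: Hspa5 (0.47 ± 0.09, adjusted p = 0.023), Pdia6 (0.68 ± 0.12, adjusted p = 0.0066) and Fkbp11 (1.23 ± 0.23, adjusted p = 0.014). The difference between operations itself did not pass for any gene, 0 of 10, where 0% of 5923 genes were called and 257 had an unadjusted p under 0.05. All 10 values were negative, with a median of -0.53 against -0.02 for all genes, led by Fkbp11 (-1.19 ± 0.31, adjusted p = 0.167), Hspa5 (-0.75 ± 0.18, adjusted p = 0.0921) and Pdia6 (-0.72 ± 0.20, adjusted p = 0.216). Without plate ppx 1 the last 3 genes passed, Hspa5 at -0.57 (adjusted p = 0.011), Pdia6 at -0.64 (adjusted p = 0.04) and Fkbp11 at -1.17 (adjusted p = 0.04).

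By their averages, the ppx and sham plates were furthest apart in the low tertile, though the difference between operations in the tertile effect passed for no gene. Tertiles were cut within each plate, and the median insulin share of insulin-only wells ran from 14.9% (ppx 3) to 31.6% (ppx 1). The same tertile of 2 plates is therefore not matched in insulin share. In the low tertile, the sum averaged 0.932 ± 0.123% on ppx plates and 0.542 ± 0.0237% on sham plates (SD, n = 3 each), a ratio of 1.72 without overlap. In the middle tertile the ratio was 1.44 and in the high tertile 1.10, with 0.753 ± 0.256% on ppx plates and 0.682 ± 0.0421% on sham plates, which overlap. Hspa5 had a ratio of 2.16 in the low, 1.69 in the middle and 1.29 in the high tertile, and Fkbp11 3.60, 1.93 and 1.41.

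Depth and the hormone share itself moved with the tertiles. Median UMIs were 3422, 3290 and 3412 in the high tertile of plates ppx 1, 2 and 3 and 6592, 4222 and 3970 in their low tertile, against 6169, 4611 and 5472 in the high and 5380, 4293 and 4016 in the low tertile of plates sham 1, 2 and 3. As a share of UMIs other than hormones the sum was 0.850, 1.16 and 1.27% in the high and 1.20, 1.15 and 1.30% in the low tertile of the ppx plates, and 1.16, 0.998 and 1.01% in the high and 0.746, 0.757 and 0.704% in the low tertile of the sham plates. On that scale plates ppx 2 and 3 were nearly level and the sham plates still higher in the high tertile. Across wells, Spearman's rho of this share with the insulin share was 0.04 and 0.02 on plates ppx 2 and 3 and 0.32 and 0.39 on plates sham 2 and 3, and the rho of insulin share with depth was -0.21 and -0.15 on plates ppx 2 and 3 and 0.13 and 0.30 on plates sham 2 and 3, and the part of depth was not tested. The rho of the same share of the 10 genes with depth was 0.22 and 0.38 on plates ppx 2 and 3 and 0.22 and 0.36 on plates sham 2 and 3, and with the mitochondrial share -0.19 and -0.05 on plates ppx 2 and 3 and -0.36 and -0.24 on plates sham 2 and 3.

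On the sham plates other genes of the folding pathway were lower outside insulin-only wells too. In glucagon-only against insulin-only wells 12 of 23 other lumenal genes were lower and 1 higher, 10 of 15 degradation genes lower, and 5 of 13 stress genes lower and 1 higher. Of all 3706 genes tested 454 were lower and 490 higher. Ero1lb averaged 0.0153 ± 0.0060% of UMIs in glucagon-only wells and 0.236 ± 0.0219% in insulin-only wells (SD, n = 3 each; -3.76 ± 0.19, adjusted p = 2.33e-84), and is itself a marker of beta cells. P4hb averaged 0.0514 ± 0.00448% in glucagon-only wells and 0.118 ± 0.0102% in insulin-only wells (-1.14 ± 0.16, adjusted p = 5.04e-12). Prdx4, a peroxiredoxin of the ER, was the 1 higher gene, at 0.00937 ± 0.00270% in glucagon-only wells and 0.00304 ± 0.00189% in insulin-only wells (2.16 ± 0.41, adjusted p = 1.21e-06). In somatostatin-only wells 7 of 23 other lumenal genes were lower and 1 higher and 6 of 15 degradation genes lower, and in joined wells 1 of 23, Ero1lb (-0.77), and 0 of 15. Of all 3706 genes tested, 355 were lower and 253 higher in somatostatin-only wells, and 27 lower and 64 higher in joined wells. Of 13 stress genes 4 were lower in somatostatin-only wells, Atf4 (-2.04 ± 0.25, adjusted p = 1.27e-14), Asns (-1.87 ± 0.44, adjusted p = 0.000385), Nupr1 and Chac1, of which the last 2 had no UMI in somatostatin-only wells of the sham plates. In joined wells 2 of 13 were lower, Atf4 (-0.67 ± 0.17, adjusted p = 0.00579), the transcription factor of the integrated stress response, and Chac1 (-1.19 ± 0.36, adjusted p = 0.0396). Atf4 averaged 0.0168 ± 0.00623% in somatostatin-only, 0.0388 ± 0.00872% in joined and 0.0606 ± 0.00329% in insulin-only wells (SD, n = 3 each).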

How the data were processed

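The deposited files hold raw UMI counts per gene and well, 1 table for each of 6 plates of 384 wells. Per the submitters' processing notes, reads were handled with HISAT 0.1.6 and mm10; the counter, its annotation and its strand setting were not given in the sources used here. Wells with at least 500 UMIs and at most 20% mitochondrial UMIs were kept, classed by hormone share and summed per plate and class where a plate had at least 5 wells. No doublet caller was run. No well name and no identical column of counts was shared between plates (0 of each). The 92 ERCC rows held 3 UMIs in all and were left out. Sums were tested with edgeR 4.0.16 in R 4.3.3 (TMM scaling, filterByExpr, quasi-likelihood test, Benjamini-Hochberg adjustment over all genes tested, threshold 0.05), with plate as a block where classes or tertiles of the same plates were compared. DESeq2 1.42.0, other filters and thresholds, and leaving out each plate were alternatives. The steps were tested on simulated data. Levels, shares and thinning used Python 3.11.15. Intervals between plates cover these plates only.

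The 10 genes, the pathway lists and the tests were chosen with earlier results of these data known. The text counts the genes that passed among all of the 10 that were tested in each comparison. It gives single values of every gene tested for ppx minus sham in insulin-only wells and for glucagon-only against insulin-only wells on sham plates. In the other comparisons single values are given for some or none of the 10 genes. Of other lists the text gives genes that passed, up to 12 in the ppx comparison of insulin-only wells and up to 4 elsewhere. Only some of these are given in each, and otherwise some of the 3 smallest p-values. Genes most like the sum were ranked by mean within-plate correlation across insulin-only wells of log2(1 + UMIs per 10000). Sequences are from RefSeq, GRCm38.p6; positions of overlapping transcripts are from GENCODE vM21. The labels do not say that plate numbers pair the plates, and the main tests used no such pairing.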

Additional observations from a re-analysis of the deposited data

Results flagged for a closer look

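In shares of all UMIs, Hspa5 and the sum of the 10 genes differed between insulin tertiles in opposite directions on the plates of the 2 operations. Well by well, Spearman's rho of the summed share with the insulin share was near 0 on plates ppx 2 and 3 (-0.063 and -0.070). On plates sham 2 and 3 it was 0.17 and 0.25. For Hspa5, the high minus the low tertile of insulin-only wells averaged -0.0855 percentage points of UMIs on ppx plates and 0.0364 on sham plates, a difference of -0.122, with the high tertile above the low tertile on 0 of 3 ppx plates and 3 of 3 sham plates. The test of that difference gave an adjusted p of 0.0921 with edgeR's quasi-likelihood test, above the threshold. For all 10 genes summed, the values were -0.179 on ppx plates and 0.140 on sham plates, a difference of -0.319, again with 0 of 3 and 3 of 3 plates higher; the difference of the sum was not tested. As a share of UMIs other than hormones, plate ppx 2 was slightly higher in its high tertile (1.16 against 1.15%), so on that scale the plates no longer all went opposite ways. Plate ppx 1 has tertiles of 6 or 7 wells, and 1 of its wells held 41 UMIs of the 10 genes after thinning to 2000 UMIs.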

How the results depend on the processing

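Depth and wells limit these results: Pdia4 and Hyou1 rest on 350 and 612 UMIs in insulin-only wells, glucagon-only wells on 1 ppx plate, and Ppy-high wells on 2 sham plates. Of 18 alternatives for ppx minus sham in insulin-only wells, 12 gave a count of genes that passed within 1.5 times the 6 reported; DESeq2 gave 3 (with no adjusted p for Hyou1 and Pdia4), doubled hormone thresholds 2, and leaving out 1 plate 1 to 7. Fkbp11 passed in all 18, Hspa5 in 15, Dnajc3 in 9 and Hsp90b1 in 7, and Pdia4 passed in 13 and Hyou1 in 12 of the 17 that gave them an adjusted p. Plate numbers were looked at as a pairing. The deviations of same-numbered plates had r of 0.0140, 0.0188 and 0.00650, and those of the other pairs lay between -0.0163 and 0.0085. All are near 0, which does not exclude a shared source. With the replicate block 6 genes passed in insulin-only wells and 0 in the other classes. Against insulin-only wells on sham plates, glucagon-only wells gave 8 lower genes and 4 to 8 without 1 plate. Somatostatin-only wells gave 7, with 4 by DESeq2 and 4 to 7 without 1 plate. Ppy-high wells gave 1, with 0 at halved and 2 at doubled thresholds, 0 to 2 without 1 plate, 8 over all 6 plates and 7 when wells counted whatever their Sst and Gcg. Joined wells gave 0, and 1 over all 6 plates. For the insulin tertiles the 0 reported became 1 at halved and 2 at doubled thresholds, 0 to 1 without 1 plate, 3 on sham plates alone and 7 when wells were ranked by insulin UMIs, a ranking that rises with depth. For the difference of that effect between operations, 0 became 1 without a filter on low counts, 2 at halved and 3 at doubled thresholds, 0 to 3 without 1 plate and 2 without the tomato-positive plates. For the interaction of operation and class, leaving out 1 plate gave 0 to 2 in glucagon-only and 0 to 1 in somatostatin-only wells. The causes were not tested. Total-count scaling, Ppy not used for the classes, sums of at least 2 wells, Gm15344 added to Hsp90b1, levels without the highest well of each plate, the wider Ppy-high class, the ranking by insulin UMIs, the split at the median, the tertiles without tomato-positive plates, and the differences between operations for tertiles, Ppy-high and joined wells were chosen after seeing the data.

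Values that changed sign were small or belonged to the tertiles. In insulin-only wells, Canx (ppx minus sham, 0.01) was -0.042 to 0.064 without 1 plate, below 0 without sham 1 (-0.0032) or ppx 2, -0.017 with tomato status as a covariate and -0.019 when Ppy was not used for the classes. In joined against insulin-only wells, Hsp90b1 (0.02) was -0.071 by DESeq2, -0.18 without a filter, -0.00083 without hormone genes, -0.0066 at 1000 UMIs or more and -0.23 without sham 2. In the high minus low tertile, ppx plates alone gave -0.28 for Hspa5, -0.092 for Pdia3, -0.023 for Pdia6, -0.12 for Calr, -0.10 for Canx and -0.045 for Dnajc3. Total-count scaling gave -0.024 for Hspa5 and -0.072 for Canx. Leaving out 1 plate gave -0.034 (without sham 3) to 0.21 for Hspa5. Hsp90b1 (-0.13) was 0.014 without ppx 3, 0.34 ranked by insulin UMIs, 0.092 on sham plates alone and 0.058 with Gm15344 added. Pdia4 (-0.01) was 0.035 at doubled thresholds, -0.088 to 0.10 without 1 plate, above 0 without any 1 of the ppx plates, 0.49 ranked by insulin UMIs, 0.081 with a split at the median in place of tertiles and 0.51 on sham plates alone. For the difference between operations, ranking by insulin UMIs gave 0.0011 for Hsp90b1, 0.24 for Hyou1, 0.0027 for Calr and 0.0090 for Dnajc3. In a class with no called gene, single values were not compared across alternatives, except in joined wells, where all 132 kept their direction. Alternatives that left a class without a plate of one operation gave no value.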

Other observations

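Within the glucagon-only and somatostatin-only classes the 10 genes did not all stand in the same order. Canx was at 0.0548, 0.0503 and 0.0598% of UMIs in glucagon-only wells and at 0.0761, 0.0552 and 0.0841% in somatostatin-only wells of plates sham 1, 2 and 3. Pdia3 was at 0.0411, 0.0469 and 0.0502% in glucagon-only wells and at 0.0617, 0.0552 and 0.0398% in somatostatin-only wells. Dnajc3 was at 0.0120, 0.0186 and 0.0219% in glucagon-only wells and at 0.0302, 0.0263 and 0.0575% in somatostatin-only wells, without overlap. Pdia6, in contrast, was at 0.0359, 0.0283 and 0.0399% in glucagon-only wells and at 0.0363, 0.0289 and 0.0354% in somatostatin-only wells, plate by plate close to equal. These class-to-class values were not tested against each other.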
